A study of Homo sapiens with 6 samples.

Results

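The ABC and organic ion transporter genes were followed in KPL4, a human cell line derived from inflammatory breast cancer, with and without ERβ, the estrogen receptor encoded by ESR2. Members were all genes whose symbol places them in subfamilies A to G of the ATP-binding cassette (ABC) family, or in the SLC22, SLC47 or SLCO families, each measured by the probe set with the highest mean over the 6 arrays. This gave 77 genes of 33578 tested: 43 ABC, 20 SLC22, 2 SLC47 and 12 SLCO symbols, of which 3 (ABCC13, SLC22A20P and SLCO4A1-AS1) are not protein-coding in RefSeq. The 3 ERβ knockout samples carried a CRISPR/Cas9-mediated disruption of ERβ, and the 3 control samples were KPL4 cells labelled control. Both groups grew in the same medium with serum, insulin and hydrocortisone, with no treatment named. The labels call the 3 arrays of a group biological replicates, but do not say whether these were separate cultures, whether the knockout cells descend from a single edited clone, or how the control cells were handled, so the p-values measure the spread between these samples only. In bulk samples, fewer cells expressing a gene and less RNA per cell cannot be told apart.

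ABC proteins use ATP to move lipids, drugs, conjugates and ions across membranes, and several of them export anticancer drugs from tumour cells. The SLC22 family holds the organic cation, carnitine and organic anion transporters, the SLC47 family the proton-coupled exporters of organic cations known as MATE proteins, and the SLCO family the organic anion transporting polypeptides, which take up steroid conjugates, thyroid hormones, prostaglandins and many drugs. In breast cells these families matter for the entry of steroid sulfates, the exit of drugs and conjugates, and lipid export.

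The cells were checked first. All 8 epithelial markers (EPCAM, CDH1, KRT7, KRT8, KRT18, KRT19, CLDN3 and CLDN4) were bright, meaning a mean log2 signal above 5.05, the median of all tested genes. By the test used below, 2 of the 8 were higher in knockout samples: CLDN3, a tight junction protein, 2.59-fold (adjusted p = 6.0e-05) and KRT19, a keratin, 2.37-fold (adjusted p = 0.00010). Of the other markers, 2 of 5 leukocyte, 4 of 6 fibroblast, 2 of 5 endothelial and 3 of 6 hepatocyte genes passed that line, and 0 of these 22 passed that test (limma), in which 1 had an unadjusted p under 0.05. The summed signal of the fibroblast markers was 8.64 to 8.77 (log2) in knockout and 8.66 to 9.12 in control samples. That of the hepatocyte markers was 13.93 to 14.01 in knockout and 13.80 to 14.03 in control samples. It came almost wholly from FGB (mean 13.93), as the other hepatocyte markers had means of 5.61 or lower. The leukocyte sum was 7.37 to 7.38 in knockout and 7.28 to 7.42 in control samples. The endothelial sum was 7.20 to 7.34 in knockout and 7.11 to 7.20 in control samples. ESR2 itself was dim, with a log2 signal of 3.90, 4.08 and 4.01 in knockout samples and 3.99, 3.69 and 4.16 in control samples, and where its probes lie relative to the edit is not given in the sources used here, so the arrays could not check the labels. Array medians over all probe sets lay between 4.08 and 4.11. Pearson's r across bright genes, which are not independent replicates, was 0.986 to 0.988 between arrays of different groups and 0.995 to 0.997 within a group.

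In knockout cells, 4 of the 77 transporter genes were higher and 7 lower than in control cells, and 66 did not pass (limma, Benjamini-Hochberg adjusted p under 0.05 over all genes tested). The organic cation exporter SLC47A2 and the lipid transporter ABCA12 fell most, followed by the conjugate exporter ABCC4 and the steroid sulfate importer SLCO2B1. ABCC2, ABCB6 and SLCO5A1 were also lower. ABCA1, ABCF3, the drug exporter ABCG2 and SLCO4C1 were higher. Over all 33578 genes the test called 8.01% (4.81% higher and 3.21% lower), against 14.3% of the members (5.19% higher and 9.09% lower). Among protein-coding genes it called 12.6% (7.86% higher and 4.73% lower). Of the 74 protein-coding members it called 14.9% (5.41% higher and 9.46% lower). With both directions together, the members' share lay near that background. Among bright genes it called 14.8%, and among bright protein-coding genes 17.8%, against 10 of the 45 bright members (22.2%), all of them protein-coding. By direction, 8.90% of bright genes were higher and 5.93% lower, against 4 and 6 of the 45 bright members. The arrays of the groups did not overlap for 30 members (39.0%), where 25.3% of all genes did not overlap. Among protein-coding genes 33.6% did not overlap, against 40.5% of the protein-coding members. The median log2 difference was 0.11 over the members and 0.02 over all genes, and 48 members had a positive and 29 a negative difference.

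**Figure D1:**
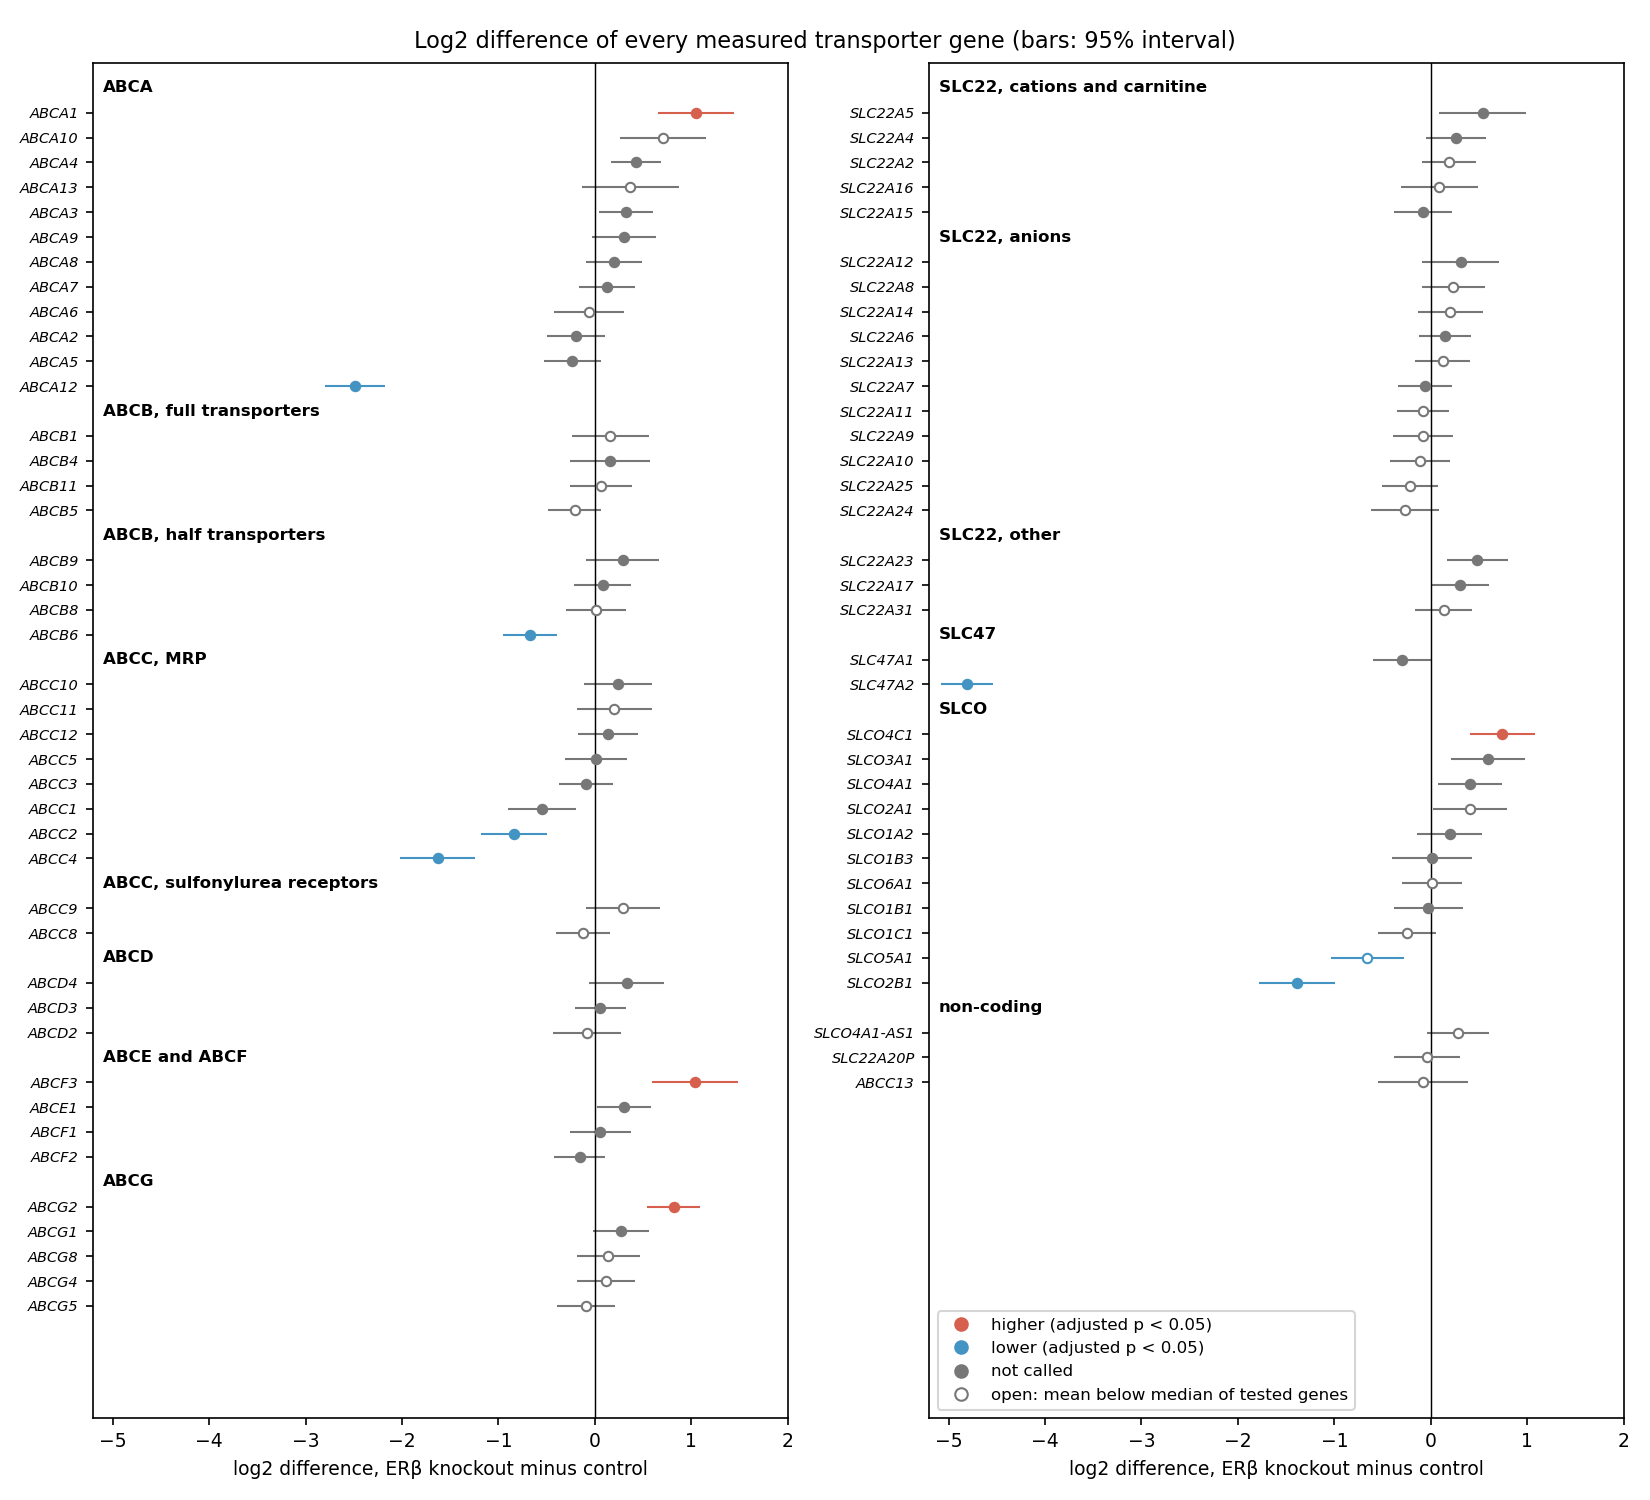
Log2 difference (ERβ knockout minus control) of each of the 77 transporter genes, grouped by family, with its 95% interval from limma. Red and blue points passed the test and open points have a mean below 5.05. SLC47A2 stands at -4.81 and ABCA12 at -2.49, whereas the 66 grey points lie within 0.71 of 0.

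SLC47A2 encodes MATE2, which exports organic cations such as metformin in exchange for protons and is best known from the kidney. Its log2 signal (probe set TC1700010035.hg.1, chromosome 17) was 5.61, 5.75 and 5.76 in the 3 knockout samples, against 10.51, 10.57 and 10.46 in the 3 control samples. Every knockout value lay far below every control value, and the knockout values stood just above the brightness line. The log2 difference was -4.81 (SE 0.12), a 28.0-fold fall (limma adjusted p = 3.7e-09). SLC47A1, the gene of the related exporter MATE1, has its own probe set near SLC47A2 on the chromosome and read 6.45, 6.16 and 6.40 in knockout samples, against 6.51, 6.78 and 6.62 in control samples. These groups did not overlap, but the difference of -0.30 (95% interval -0.60 to 0.00) did not pass (adjusted p = 0.25).

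The promoter window of SLC47A2 is shown because this gene changed most among the members. It runs from 250 bases before to 50 after the RefSeq start (GRCh38.p14, chr17:19718930-19719229, minus strand) and is written 5′ to 3′.
SLC47A2: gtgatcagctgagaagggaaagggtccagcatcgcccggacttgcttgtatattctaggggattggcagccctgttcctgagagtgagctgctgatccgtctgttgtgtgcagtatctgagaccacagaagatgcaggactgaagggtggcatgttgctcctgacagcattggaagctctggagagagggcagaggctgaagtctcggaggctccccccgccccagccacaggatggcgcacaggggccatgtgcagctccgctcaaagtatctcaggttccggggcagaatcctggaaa
The window was searched on both strands for the full estrogen response element (GGTCA, any 3 bases, TGACC), its single arm (AGGTCA), the core of the antioxidant response element (TGACNNNGC) and a liver X receptor element of the DR4 type (AGGTNA, any 5 bases, GGTCA). None of these letters occurred in it, so it has no capitals. Over 35116 RefSeq windows of 300 bases these motifs occurred in 0.057%, 13.8%, 13.3% and 0.094%. Over the 56 members with a window they occurred in 0, 6, 9 and 1. The DR4 form was loosened with the values in view, so its count in member windows is no test. The full element and the DR4 element can overlap the single arm. Among the 10 called members with a window, 0 held the full element and 0 the single arm. The GC box (GGGCGG), the cAMP response element (TGACGTCA), the dioxin response element core (GCGTG) and the E-box (CACGTG) were searched too and are not marked. Of these the SLC47A2 window held 1 GC box and no other match. A GC box occurred in 45% of all windows. A match is a description of the letters, not of binding.

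Among ABCA genes, lipid transporters of the plasma membrane and secretory vesicles, 1 of 12 rose and 1 fell. That is 16.7% called, against 12.6% of protein-coding genes. ABCA12, which loads glucosylceramides into lamellar granules of skin cells, had a log2 signal of 10.39, 10.30 and 10.34 in knockout samples, against 12.61, 13.06 and 12.82 in control samples. The groups lay well apart, with a difference of -2.49 (SE 0.14), a 5.60-fold fall (adjusted p = 2.3e-06). ABCA1, which passes cholesterol and phospholipid to apolipoprotein A-I, had 7.93, 8.06 and 8.38 in knockout samples, against 6.83, 7.42 and 6.99 in control samples. All 3 knockout values were above all control values, a 2.07-fold rise (log2 difference 1.05, SE 0.18, adjusted p = 0.0038). ABCA4, the retinoid transporter of photoreceptors, differed by 0.42 (95% interval 0.16 to 0.68) with tight replicates, and did not pass (adjusted p = 0.052). It passed with array medians set equal (adjusted p = 0.046), with bright genes only (0.019), with an intensity trend (0.0019) and without moderation (0.021). ABCA10 had the widest difference of any member that did not pass, 0.71 (adjusted p = 0.058), with a mean below the brightness line. The remaining 8 differed by -0.23 to 0.37.

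The ABCA1 window is shown because it was the one member window with a DR4 match (GRCh38.p14, chr9:104928106-104928405, minus strand). Capitals mark that match, which lies on the opposite strand and starts 69 bases before the RefSeq start.
ABCA1: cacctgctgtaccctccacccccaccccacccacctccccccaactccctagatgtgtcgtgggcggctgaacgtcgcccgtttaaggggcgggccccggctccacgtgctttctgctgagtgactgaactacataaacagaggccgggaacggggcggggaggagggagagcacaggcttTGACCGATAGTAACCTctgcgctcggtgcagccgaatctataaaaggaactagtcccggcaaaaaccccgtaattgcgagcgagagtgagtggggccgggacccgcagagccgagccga
As background, liver X receptors are known to act on ABCA1 through a DR4 element near its start. The searched motif leaves a base unfixed in each arm, and this match differs from AGGTCA at both. The unfixed base in the first arm was chosen with the values in view, so finding this match was no test.

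In the ABCC subfamily, which exports glutathione, glucuronide and sulfate conjugates, 2 of the 8 multidrug resistance proteins fell and 0 rose. That is 25% called, against 12.6% of protein-coding genes and 17.8% of bright ones. With 8 genes this count says little about the subfamily. ABCC4 (MRP4), an exporter of cyclic nucleotides and prostaglandins, had a log2 signal of 8.91, 9.23 and 8.58 in knockout samples, against 10.75, 10.44 and 10.42 in control samples. The groups were more than a log2 unit apart, with a difference of -1.63 (SE 0.17), a 3.10-fold fall (adjusted p = 0.00018). ABCC2 (MRP2), which exports conjugates at the apical membrane, had 13.53, 13.64 and 13.48 in knockout samples, against 14.68, 14.35 and 14.14 in control samples. Every knockout value was below every control value, a 1.79-fold fall (log2 difference -0.84, SE 0.15, adjusted p = 0.0061). ABCC1 (MRP1), the exporter of leukotriene C4, had 11.99, 12.15 and 12.05 in knockout samples, against 12.91, 12.30 and 12.62 in control samples. Its groups did not overlap either, but the difference of -0.55 (95% interval -0.90 to -0.19) did not pass (adjusted p = 0.066). It passed in 4 of 13 alternative settings. These were without control replicate 2 (adjusted p = 0.019), with repeated quantile normalization (0.036), with bright genes only (0.033) and with an intensity trend. ABCC3 (MRP3), an exporter at the basolateral membrane, differed by -0.09 (95% interval -0.38 to 0.19) and ABCC5, a cyclic nucleotide exporter, by 0.01 (95% interval -0.31 to 0.33). ABCC10, ABCC11 and ABCC12 differed by 0.14 to 0.24, and the sulfonylurea receptors ABCC8 and ABCC9, subunits of potassium channels, were dim.

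Of the 4 full-length ABCB exporters, 3 were dim. ABCB1, which encodes P-glycoprotein, read 4.92, 4.82 and 4.90 in knockout samples, against 4.87, 5.02 and 4.27 in control samples. The groups overlapped (difference 0.16, 95% interval -0.24 to 0.56, adjusted p = 0.71), and both means were below the brightness line. Neither ABCB4, a phosphatidylcholine transporter of bile, nor ABCB5 or the bile salt exporter ABCB11 passed, with differences of -0.21 to 0.16. Of the 4 shorter ABCB transporters, which pair up in mitochondria and lysosomes, ABCB6, a porphyrin transporter, was lower. Its log2 signal was 7.08, 7.06 and 7.19 in knockout samples, against 7.94, 7.74 and 7.68 in control samples. These values did not overlap, and the fall was 1.60-fold (log2 difference -0.67, SE 0.13, adjusted p = 0.0075). ABCB8, ABCB9 and ABCB10 differed by 0.01 to 0.29 and did not pass.

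The windows of ABCC4 (GRCh38.p14, chr13:95301402-95301701, minus strand) and ABCB6 (chr2:219218909-219219208, minus strand) are shown because each holds the antioxidant response element core, in capitals, as does that of SLCO4C1 (chr5:102296235-102296534, minus strand), a gene that was higher.
ABCC4: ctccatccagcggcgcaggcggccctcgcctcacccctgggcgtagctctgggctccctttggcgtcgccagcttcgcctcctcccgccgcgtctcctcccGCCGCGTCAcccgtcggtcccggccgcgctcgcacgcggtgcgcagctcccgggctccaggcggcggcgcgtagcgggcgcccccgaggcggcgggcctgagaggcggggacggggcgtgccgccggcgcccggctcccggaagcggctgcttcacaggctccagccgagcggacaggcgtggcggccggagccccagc
ABCB6: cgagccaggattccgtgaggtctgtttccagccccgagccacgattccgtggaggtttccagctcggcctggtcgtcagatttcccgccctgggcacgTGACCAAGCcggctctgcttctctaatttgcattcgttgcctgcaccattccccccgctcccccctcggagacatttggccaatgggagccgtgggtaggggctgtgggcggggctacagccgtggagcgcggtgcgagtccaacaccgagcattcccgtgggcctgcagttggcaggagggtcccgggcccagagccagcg
SLCO4C1: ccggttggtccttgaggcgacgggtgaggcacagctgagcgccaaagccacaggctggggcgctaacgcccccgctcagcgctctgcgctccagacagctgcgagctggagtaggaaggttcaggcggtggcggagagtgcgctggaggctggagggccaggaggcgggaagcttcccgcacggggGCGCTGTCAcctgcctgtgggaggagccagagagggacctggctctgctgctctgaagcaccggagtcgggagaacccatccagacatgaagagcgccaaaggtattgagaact
The core lay on the opposite strand in ABCC4 and SLCO4C1. It occurred in 2 of the 6 windows of members called lower and in 1 of the 4 of members called higher. Over all 35116 windows the share was 13.3%, and 9 of the 56 member windows held it. NFE2L2, the gene for NRF2, the factor known to act through this element, is described among the regulators. Whether NFE2L2 bears on these genes was not tested.

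ABCG2 encodes the breast cancer resistance protein, an exporter of drugs, urate and estrone sulfate. Its log2 signal was 13.43, 13.21 and 13.35 in knockout samples, against 12.57, 12.50 and 12.47 in control samples. The knockout values were all higher, by 0.82 (SE 0.12), a 1.76-fold rise (adjusted p = 0.0019). ABCG1, which exports sterols to high-density lipoprotein, differed by 0.27 (95% interval -0.02 to 0.56, adjusted p = 0.30). The sterol transporters ABCG4, ABCG5 and ABCG8 were dim and differed by -0.09 to 0.14.

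ABCE1 and the ABCF proteins carry ABC domains without a membrane part and act on ribosomes and translation. Here ABCF3 rose, with a log2 signal of 9.10, 9.05 and 8.81 in knockout samples, against 8.04, 7.46 and 8.35 in control samples. The control values were scattered, yet all lay below the knockout values (log2 difference 1.04, SE 0.20, 2.05-fold, adjusted p = 0.0088). ABCE1, which splits ribosomes after termination, differed by 0.30 (adjusted p = 0.20), ABCF1 by 0.05 and ABCF2 by -0.16. Of the ABCD genes, ABCD3, an importer of fatty acids into peroxisomes, differed by 0.06 (95% interval -0.21 to 0.32), ABCD2 by -0.08 and ABCD4, a lysosomal protein of vitamin B12 handling, by 0.33, and none of the 3 passed (adjusted p of 0.34 to 0.86).

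Of the 12 SLCO symbols, 1 rose and 2 fell (25% called, against 8.01% of all genes and 12.6% of protein-coding genes). With so few genes this count says little about the family. SLCO2B1 (OATP2B1), which takes up estrone sulfate, had a log2 signal of 4.91, 5.27 and 5.08 in knockout samples, against 6.51, 6.11 and 6.79 in control samples. The knockout mean lay at the brightness line, and no value of one group reached the other (log2 difference -1.39, SE 0.18, 2.62-fold lower, adjusted p = 0.00065). SLCO4C1, a transporter of digoxin and thyroid hormone in the kidney, had 7.44, 7.56 and 7.44 in knockout samples, against 6.46, 6.76 and 7.01 in control samples. It was 1.67-fold higher (log2 difference 0.74, SE 0.15, adjusted p = 0.012), and without knockout replicate 2 it no longer passed (adjusted p = 0.058). SLCO5A1 read 4.43, 4.15 and 4.28 in knockout samples, against 4.55, 5.12 and 5.15 in control samples. Both means were dim, so no fold is given for the difference of -0.66 (SE 0.17, adjusted p = 0.041), which passed in 1 of the 6 fits that left out an array, the one without control replicate 1 (adjusted p of 0.0086 to 0.15).

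The other 9 SLCO symbols did not pass. SLCO3A1, a prostaglandin and thyroid hormone transporter, had 10.42, 9.83 and 10.49 in knockout samples, against 9.63, 9.59 and 9.74 in control samples. The groups did not overlap, but knockout replicate 2 stood apart from the others of its group. The difference of 0.59 (95% interval 0.20 to 0.97) did not pass (adjusted p = 0.068). SLCO3A1 passed in 3 of 13 alternative settings: without that replicate (adjusted p = 0.012), with bright genes only (0.035) and with an intensity trend. SLCO4A1, a thyroid hormone transporter, differed by 0.40 (95% interval 0.07 to 0.74, adjusted p = 0.15). The liver uptake transporters SLCO1B1 and SLCO1B3, which are close paralogs, differed by -0.03 (95% interval -0.38 to 0.33) and 0.01 (95% interval -0.40 to 0.43).

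Of the 20 SLC22 symbols 0 were called (limma), where 8.01% of all genes were, and 12 of the 20 were dim. With so few bright genes this count says little about the family. An unadjusted p under 0.05 was seen for 3, and differences ran from -0.27 to 0.54. SLC22A5 (OCTN2), the carnitine importer, had 8.89, 8.49 and 8.96 in knockout samples, against 8.39, 7.78 and 8.57 in control samples. Its groups overlapped, and control replicate 2 was the lowest value (difference 0.54, 95% interval 0.08 to 0.99, adjusted p = 0.16, and 0.30 without that replicate). SLC22A23, a member of unknown substrate, differed by 0.48 (adjusted p = 0.069, and 0.031 when bright genes alone were tested) and SLC22A17, a lipocalin receptor, by 0.30 (adjusted p = 0.24). The kidney cation transporter SLC22A2 was dim in both groups and SLC22A4 (OCTN1), an ergothioneine transporter, differed by 0.26 (95% interval -0.05 to 0.57). Of the 11 anion transporters, 8 were dim, and the 3 bright ones, SLC22A6, SLC22A7 and SLC22A12, differed by 0.14, -0.06 and 0.31. The 3 non-coding members were dim and differed by -0.09 to 0.28.

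**Figure D2:**
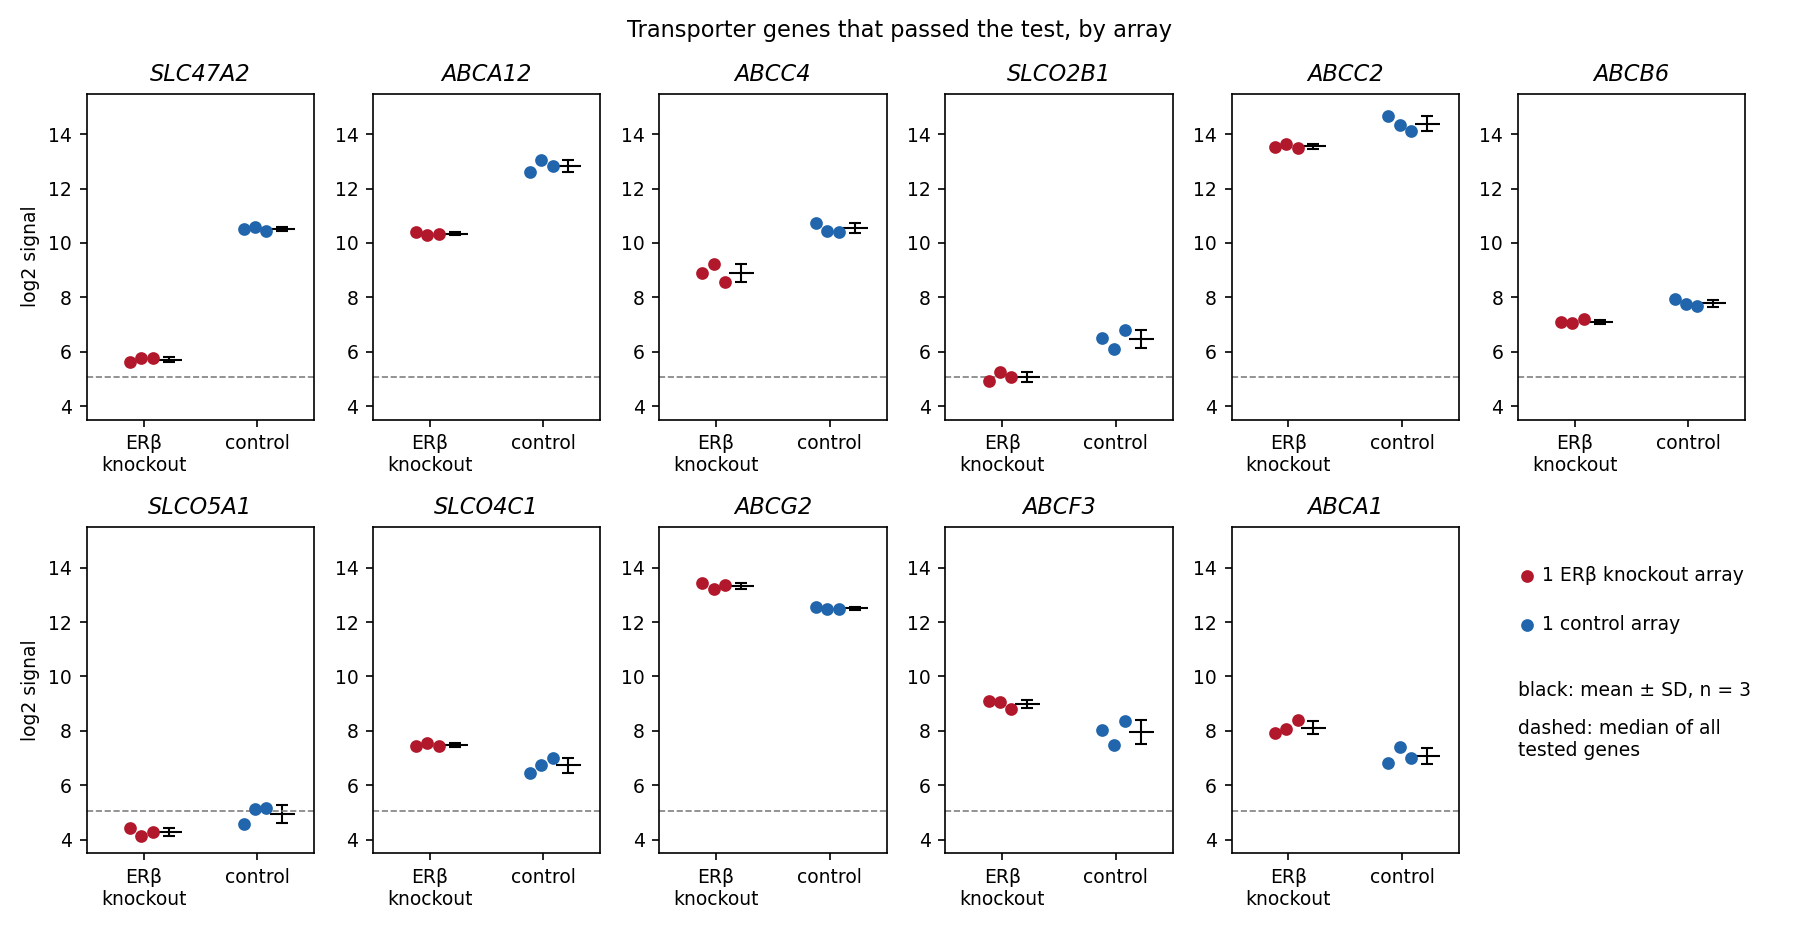
Log2 signal on each array for the 11 transporter genes that passed the test, from the most lowered, SLC47A2, to the most raised, ABCA1. Points are arrays, black marks the mean ± SD of 3, and the dashed line is 5.05. The groups do not overlap in any of the 11 genes, and both SLCO5A1 means lie below the line.

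Several called genes lay beside genes that differed the same way. For each called member, the 5 nearest bright protein-coding genes on each side were taken in RefSeq order (GRCh38.p14), as a description with no test. Around ABCC4, on chromosome 13, 6 of 10 neighbours were lower and 1 was higher, with a median log2 difference of -0.75, against -1.63 for ABCC4. Over all 199 bright protein-coding genes of chromosome 13 the median was -0.72, and 115 of them were lower. Around ABCA12, on chromosome 2, the median was -0.49 with 4 lower neighbours, among them SPAG16 (-2.51) and FN1 (-1.06), against -2.49 for ABCA12. Over all 819 bright protein-coding genes of chromosome 2 the median was -0.003, and 139 of them were lower. ABCB6, on the same chromosome, sat between RETREG2 (-0.73), ZFAND2B (-0.67) and ATG9A (-0.71) at -0.67, with a neighbour median of -0.21. Around ABCF3, on chromosome 3, the median was 0.41, 4 of 10 neighbours were higher and AP2M1, the nearest on one side, differed by 0.97, against 1.04 for ABCF3, while ABCC5, also among the 10, differed by 0.01. Over all 675 bright protein-coding genes of chromosome 3 the median was 0.035, and 95 of them were higher. What the shared shifts of the neighbours have to do with the members' differences was not tested.

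For the other 7 called members the neighbour medians lay between -0.14 and 0.27. The median was -0.07 around SLC47A2, where 1 of 10 neighbours passed. That gene was ALDH3A1, an aldehyde dehydrogenase, the nearest bright gene on one side, which differed by -1.80, whereas ALDH3A2, the nearest on the other, differed by -0.08. The median was 0.14 around ABCA1, -0.04 around ABCC2, 0.17 around ABCG2, -0.14 around SLCO2B1, 0.13 around SLCO4C1 and 0.27 around SLCO5A1. SULF1, the nearest bright gene on one side of SLCO5A1, differed by -2.32, while 4 of its other neighbours were higher. Around ABCC1, which did not pass at -0.55, the median was 0.37 and 3 of 10 neighbours were higher.

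**Figure D3:**
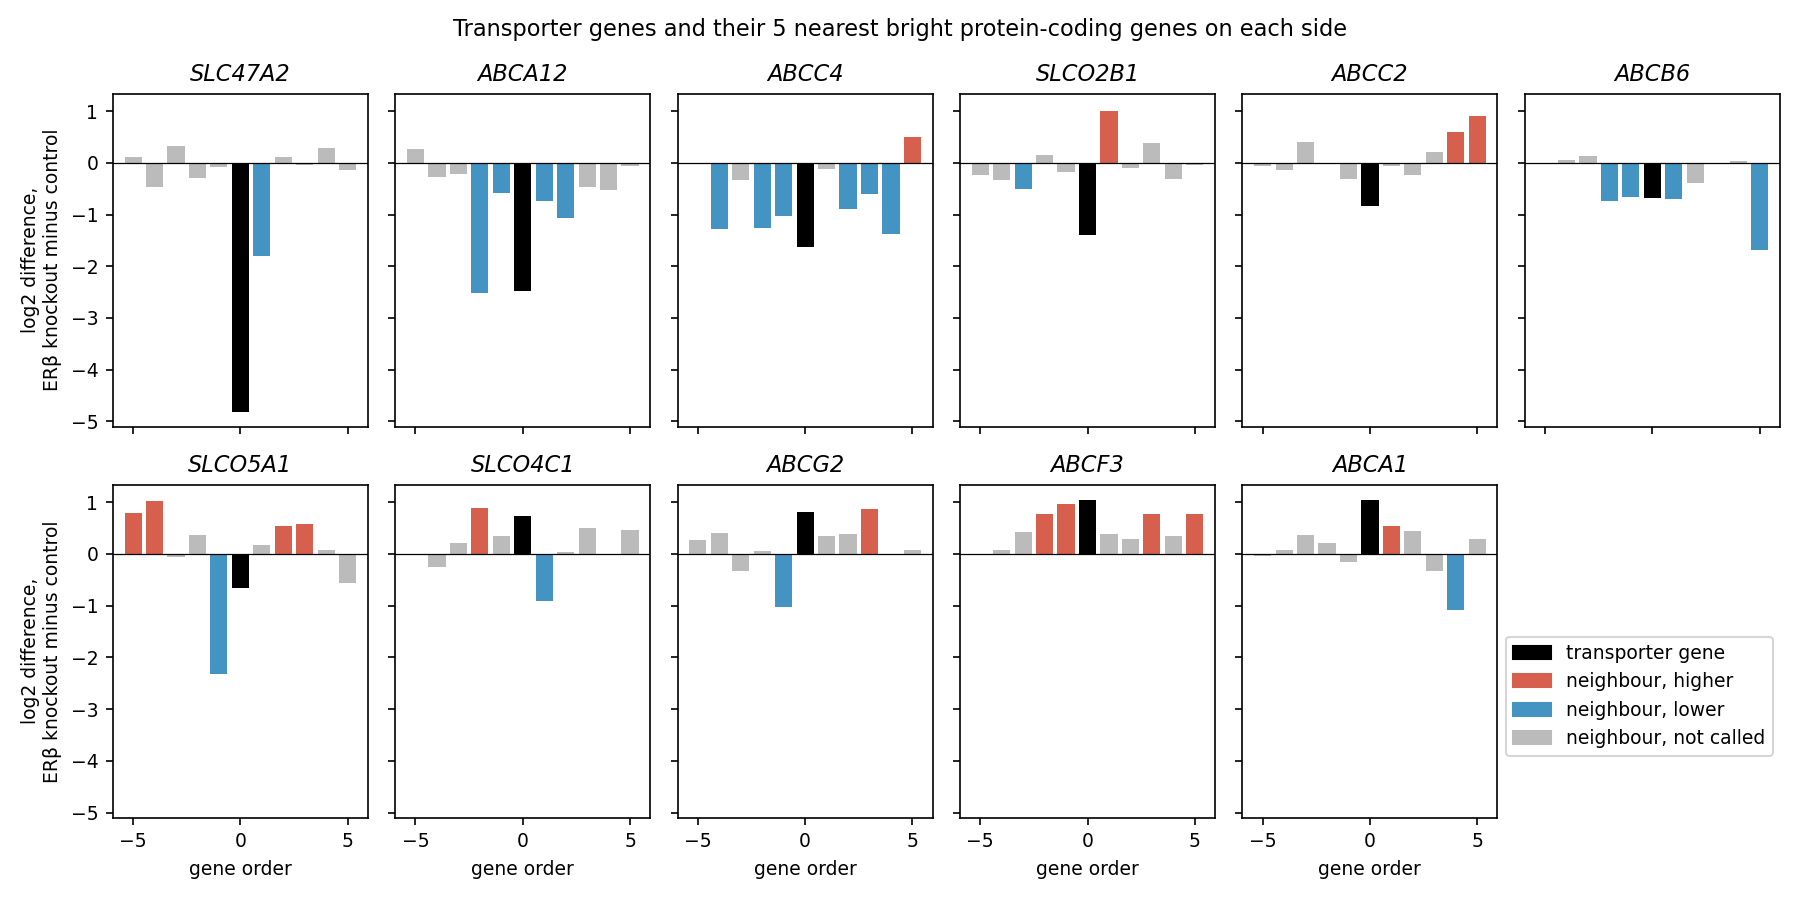
Log2 difference (ERβ knockout minus control) of each called transporter gene (black, position 0) and of its 5 nearest bright protein-coding genes on each side in gene order. Blue and red bars passed the test, and grey bars did not. Of the 10 neighbours, 9 of ABCC4 and 9 of ABCA12 are negative, 0 of ABCF3 are, and 1 beside SLC47A2 is blue.

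Other probe sets existed for 6 members, none of them called. ABCC1's second probe set was dim and differed by -0.31, in the direction of the first, while those of SLCO1A2 (-0.50 against 0.19) and ABCC9 (-0.29 against 0.29) had the opposite sign and were dim. ABCD3 had both of its other probe sets at the opposite sign, a bright one at -0.049 and a dim one at -0.25, against 0.06 for the one used.

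Genes that work with these transporters were counted from lists chosen with earlier results of these data known, and their counts stand against the 12.6% of protein-coding genes that the test called. Of 18 regulators, 1 rose and 1 fell. NFE2L2 (NRF2), a regulator of antioxidant genes and of several ABCC exporters, was 1.61-fold lower, with a mean of 11.79 in knockout and 12.47 in control samples (adjusted p = 0.0087), though not without knockout replicate 2 (adjusted p = 0.0504). SREBF1, a lipid synthesis factor and liver X receptor target, was 1.68-fold higher (adjusted p = 0.039), but passed in 1 of the 6 fits that left out an array (highest adjusted p = 0.13). NR1H3, a liver X receptor gene in the same list, had means of 5.12 in knockout and 5.00 in control samples (adjusted p = 0.77). Of 31 conjugating enzymes, 4 rose and 1 fell. The 4 were GSTM1, GSTM2, GSTM3 and GSTM4 (GSTM3 named after its value was seen), closely related glutathione transferases whose copies the probe sets may not keep apart, at 1.90-fold, 2.05-fold, 1.52-fold and 2.43-fold (GSTM3 not without knockout replicate 1, adjusted p = 0.057). With all probe sets of a gene averaged, GSTM2 differed by 0.54 on the log2 scale (adjusted p = 0.037), against 1.03 with the one used. GSTA4 was 1.88-fold lower (adjusted p = 0.0012).

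Of 6 scaffold proteins that anchor transporters at the apical membrane, or partners of these, 2 rose. PDZK1IP1, a partner of the scaffold PDZK1, was 2.61-fold and NHERF2 2.01-fold higher (adjusted p = 0.00027 and 0.00059). The other 4 did not pass, PDZK1 itself among them (log2 difference 0.34, adjusted p = 0.22). Of 17 other ABC, bile acid and lipid handling genes, 3 rose and 1 fell. SLC10A5 was 1.96-fold, the lipid flippase ATP8B1 1.64-fold and APOE, a lipid carrier, 1.62-fold higher. ATP8B1 did not pass when all probe sets of a gene were averaged (log2 difference 0.22, adjusted p = 0.39). TAP1, the ABC peptide transporter of antigen presentation, was 1.78-fold lower (adjusted p = 0.0094). Of 21 other drug, vitamin and carnitine pathway genes, 3 rose and 0 fell. SLC19A2, a thiamine transporter, was 2.34-fold higher (adjusted p = 0.00014) and CPT2, a carnitine palmitoyltransferase, 1.48-fold (not without knockout replicate 1 or 2, highest adjusted p = 0.060). SLC29A3, a nucleoside transporter of lysosomes, was 1.43-fold higher (adjusted p = 0.039), and passed in none of the 6 fits that left out an array (adjusted p up to 0.15) nor with all its probe sets averaged (log2 difference 0.13, adjusted p = 0.68).

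**Figure D4:**
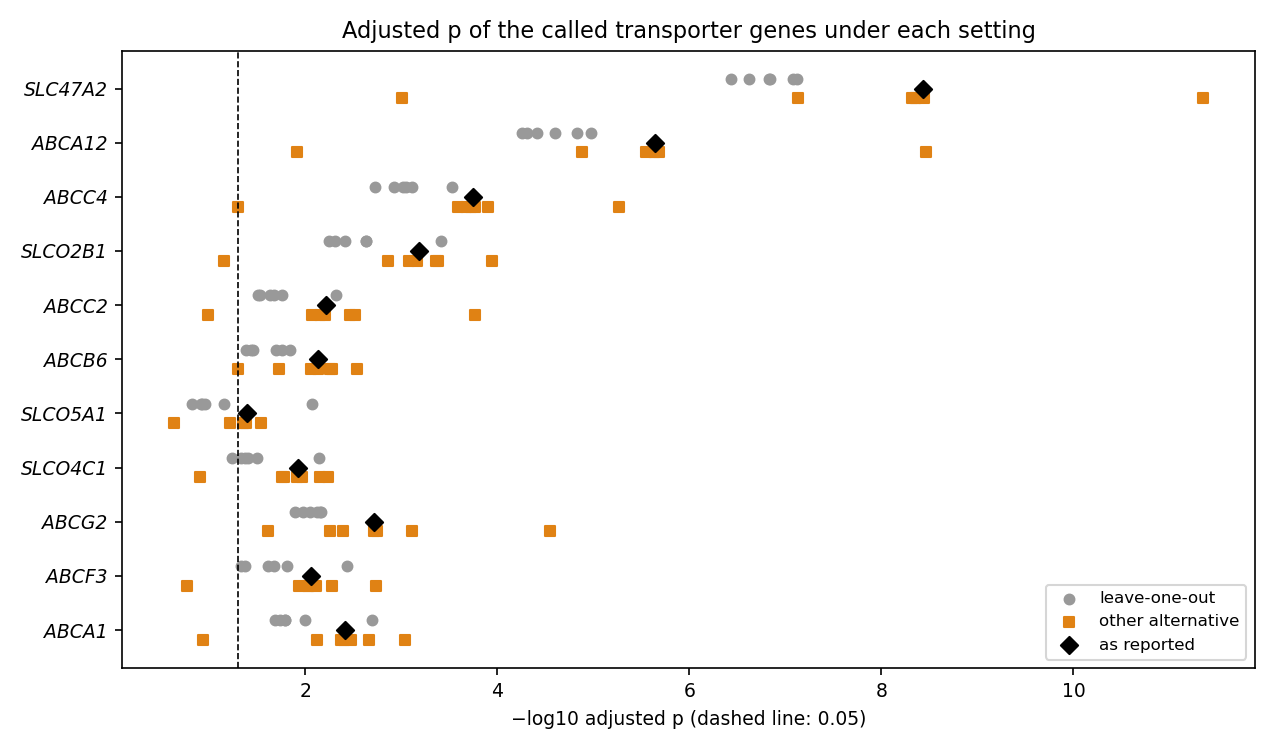
Negative log10 adjusted p of the 11 called transporter genes as reported (black), without each array in turn (grey) and under 7 other settings (orange), with the 0.05 threshold dashed. SLC47A2 and ABCA12 stay right of the line throughout, ABCB6 and ABCG2 too, and SLCO5A1 lies left of it in 7 of them.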

How the data were processed

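The authors deposited log2 signal values for 134748 probe sets on 6 Affymetrix arrays, and per the submitters' processing notes these come from RMA, run in Transcriptome Analysis Console. RMA corrects background, normalizes between arrays and gives 1 value per probe set. Versions and the array's genome build are not given in the sources used here, and that the scale is log2 was judged from the range of values. Gene symbols came from GEO's platform annotation, where 35528 had 1 symbol, 1119 several and 98101 none listed here. The probe set with the highest mean over 6 arrays stood for each gene.

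Groups were compared over 33578 genes with limma 3.58.1 in R 4.3.3 (lmFit, eBayes, two-sided, Benjamini-Hochberg at 0.05, prior degrees of freedom 6.84). Intervals are 95%. With 3 arrays a group, the array number limits precision. In simulated data with 200 of 33578 genes changed, 62.0% of log2 changes of 1 and 97.0% of changes of 2 were recovered. The test called 2691 genes in the measured data, so recovery there can differ. Named are all called members, the largest uncalled bright difference and the highest mean per role group, 21 transporters (2 of them not analysed here), called genes of the companion lists and neighbours. Members and lists were chosen with earlier results of these data known. Promoter windows came from RefSeq (GRCh38.p14) for 56 of 77 members.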

Additional observations from a re-analysis of the deposited data

How the results depend on the processing

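Of the 11 called members, 4 (SLC47A2, ABCA12, ABCB6 and ABCG2) passed under all 13 alternatives, and all 11 kept their sign. In an unmoderated fit 2 members were called higher, 3 lower and 1086 genes were called in all. Lost there were ABCA1, ABCC2, ABCC4, ABCF3, SLCO2B1, SLCO4C1 and SLCO5A1 (adjusted p of 0.0501 to 0.24) and, of the companion genes, APOE, GSTM1, GSTM2, GSTM4, NFE2L2, SLC10A5, SLC29A3, SREBF1 and TAP1 (0.061 to 0.26). With genes above the median brightness 7 members were higher. Under robust moderation with an intensity trend 8 were higher. Without single arrays, 4 to 5 members were higher, 6 to 7 lower and 1668 (without knockout replicate 2) to 2266 genes called in all. The labels do not say whether replicate numbers pair the samples. Deviations of same-numbered arrays from their group means correlated at -0.03 to -0.01 over bright genes, against -0.03 to 0.05 for other numbers. These values cannot show that the samples were unpaired. With a replicate block 5 members were higher, 6 lower and 2303 genes called, SLCO5A1 being lost. Signs turned for uncalled genes near 0. Without single arrays, ABCB1 ranged from -0.064 to 0.31, ABCB10 from -0.013 to 0.14, SLCO1B1 from -0.19 to 0.079, SLCO1B3 from -0.20 to 0.13 and ESR2 from -0.075 to 0.16. ABCD3 was at -0.079 with the mean of all probe sets and SLCO1B3 at -0.0094 with repeated quantile normalization. The cause was not tested. Dim genes have little signal over background, which limits what a missing difference shows.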
